A study of Mus musculus with 188 samples.

Results

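The 13533 bins that lay in the middle of the replication schedule of mouse embryonic stem cells are described here. They were chosen from 45112 autosomal bins of 50 kb. A bin's schedule value was the mean of its mean smoothed score over haploid cells and its mean smoothed score over diploid cells, and all bins were ranked from the highest value, replicated first, to the lowest. Members were the bins ranked from 35% to under 65%. Because these scores chose the members, the members' scores and replication states are given as a description and no test was made on them.

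The study sequenced the DNA of single mouse embryonic stem cells that had been sorted by DNA content, so that replicated regions stood out by their higher copy number. The haploid line H129-2 has the 129 strain background, and the diploid line F121-9 is a hybrid with 1 chromosome set from 129 and 1 from Castaneus (cas), whose sequence variants assign reads to a homolog. Both lines grew in N2B27 medium with the 2i inhibitors and LIF, which hold stem cells in the naive state, and the labels name no treatment. Values were available for 75 haploid and 63 diploid S-phase cells. Each line is 1 line on 1 plate with no culture named, so every ± below is a standard deviation (SD) over cells, bins or chromosomes as stated, and a difference between the lines cannot be told apart from a difference between plates. The deposited values hold no read numbers, so the depth behind each cell is unknown.

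Chromosomes replicate in domains that start at characteristic times in S phase. Early domains are typically rich in genes and open in chromatin, and late domains are typically gene-poor and lie at the nuclear lamina. Stretches between them include timing transition regions, in which a fork or a series of later origins carries replication from an early to a late domain, as well as domains whose own replication falls in the middle of S phase.

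Sequence differed along the schedule, and 3 windows show how. Each window comes from a bin near the median GC content, CpG density and rank of its band, on the plus strand of mm10, with every CpG dinucleotide in capitals. The window of the bins just earlier than the members (ranks 10% to under 35%) lies at chr10:7496201-7496400 and the window of the members at chr6:53118201-53118400, both outside annotated genes. The window of the bins just later (ranks 65% to under 90%) lies at chr1:138158001-138158200 in an intron of Ptprc.
earlier bin: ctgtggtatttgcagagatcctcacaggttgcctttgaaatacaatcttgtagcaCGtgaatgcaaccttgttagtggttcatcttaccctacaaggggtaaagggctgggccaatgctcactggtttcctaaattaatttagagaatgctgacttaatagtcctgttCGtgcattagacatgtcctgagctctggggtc
member bin: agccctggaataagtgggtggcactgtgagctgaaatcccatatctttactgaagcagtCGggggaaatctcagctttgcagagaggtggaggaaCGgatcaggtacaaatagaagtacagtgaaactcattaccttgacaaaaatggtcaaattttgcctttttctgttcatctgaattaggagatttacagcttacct
later bin: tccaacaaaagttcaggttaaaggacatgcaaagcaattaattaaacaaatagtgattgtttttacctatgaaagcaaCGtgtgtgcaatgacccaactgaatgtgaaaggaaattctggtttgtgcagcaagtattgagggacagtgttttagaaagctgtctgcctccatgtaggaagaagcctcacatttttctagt
The windows had a GC content of 44.5%, 42.5% and 38% and held 2, 2 and 1 CpG. The letters CG, which read the same on both strands, were present in 79.2% of all such 200-base windows of the earlier bins, 71.2% of those of the members and 61.1% of those of the later bins.

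Member bins also held promoters of unlike composition at nearly the same rank, and 3 are shown for that contrast, chosen after their values were seen. These are the 250 bases before the RefSeq start (build GRCm38.p6), on the gene's strand, again with CpG in capitals. Hoxd13, a homeobox gene of limb and axis patterning, has its upstream stretch at chr2:74667975-74668224 on the plus strand. That of Zfp42 (Rex1), a marker of naive pluripotency, lies at chr8:43307010-43307259 on the minus strand. That of the olfactory receptor gene Olfr101 lies at chr17:37300485-37300734 on the minus strand, within an annotated intron of the gene.
Hoxd13: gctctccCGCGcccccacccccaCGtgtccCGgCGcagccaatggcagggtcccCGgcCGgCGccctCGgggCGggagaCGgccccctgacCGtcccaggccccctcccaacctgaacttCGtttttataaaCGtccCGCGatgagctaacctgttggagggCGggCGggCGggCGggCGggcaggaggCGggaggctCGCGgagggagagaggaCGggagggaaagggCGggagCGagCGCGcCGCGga
Zfp42: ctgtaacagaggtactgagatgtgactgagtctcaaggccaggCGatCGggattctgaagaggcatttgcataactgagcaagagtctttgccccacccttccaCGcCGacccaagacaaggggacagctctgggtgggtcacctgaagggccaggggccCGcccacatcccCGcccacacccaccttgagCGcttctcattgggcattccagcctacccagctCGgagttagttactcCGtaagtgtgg
Olfr101: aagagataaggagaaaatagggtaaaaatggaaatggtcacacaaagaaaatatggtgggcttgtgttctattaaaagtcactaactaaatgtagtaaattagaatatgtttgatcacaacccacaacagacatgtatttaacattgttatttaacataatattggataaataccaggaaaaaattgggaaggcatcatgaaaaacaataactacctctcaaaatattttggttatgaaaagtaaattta
They held 31, 9 and 0 CpG, and the bins they belong to ranked 46.6%, 46.6% and 47.4%. Of the 4207 RefSeq promoters of protein-coding genes in member bins, 91.4% held at least 1 CpG in these 250 bases, against 94.4% of the 17951 promoters in all used bins.

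Before the results, a few cells need mention. In 3 pairs of diploid cells, the deviations of the scores from the mean over cells correlated at 0.841, 0.661 and 0.617, and the next most similar pair of any cells had 0.537. The states of these pairs differed in 12%, 7.32% and 8.68% of bins. Values with 1 cell of each pair left out stand in the closing section. A further 3 diploid cells lay far from the rest of their line in S phase, with 18.2%, 20.4% and 79.1% of bins replicated.

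The members covered schedule values from 0.257 down to -0.387, a span of 0.644 out of 2.19 over all bins. With S phase set to 10 h, their scheduled times ran from 3.5 h to 6.5 h. The limits cut through a continuum. The first 2 members had a schedule value of 0.257, as did the 2 bins just earlier, and the last 2 members had -0.387, with -0.387 and -0.388 in the 2 bins just later. Every autosome held members. Their share of the used bins was lowest on chromosome 5, at 24%, and highest on chromosome 13, at 39.99%. Chromosome 11 had 46.2% of its bins earlier than the members and 32.4% in them, while chromosome 3 had 46% of its bins later and 27.5% in them.

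Members lay in 1357 runs of adjacent bins with a median length of 7 bins, or 350 kb. The longest run held 101 bins (5.05 Mb), and 190 runs were single bins. Runs of at least 20 bins numbered 193 and held 40.8% of the members. The position of a run between its neighbours differed widely. In 367 runs with 35% of the members, the nearest used bin was earlier on 1 side and later on the other, the arrangement of a timing transition. Another 272 runs (16.7% of members) had earlier bins on both sides and 102 runs (11%) had later bins on both sides. The remaining 616 runs with 37.3% of the members ended at a gap of unused bins. When members across gaps of at most 3 bins were joined, a choice made after seeing the data, 51.5% of members lay in runs from earlier to later bins, 25.7% between earlier bins and 16.3% between later bins.

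The gene content of the run types depended on the ranks taken. Over all members, runs from earlier to later bins had 5.27 protein-coding gene starts per Mb, runs between earlier bins 8.25, runs between later bins 6.60 and runs ending at a gap 8.06. Among members ranked 45% to under 55%, runs from earlier to later bins had 4.76 per Mb in 1608 bins. Runs with earlier bins on both sides had 6.41 per Mb in 652 bins, and runs with later bins on both sides, which are local peaks of early replication, had 8.04 per Mb in 470 bins. Runs ending at a gap had 7.80 per Mb in 1781 bins. Taken by autosome at these ranks, the means were 4.65 ± 2.20 per Mb (SD over 19 autosomes) from earlier to later bins, 6.30 ± 4.73 between earlier bins (19 autosomes) and 8.10 ± 2.67 between later bins (the 16 autosomes with such bins), so the spreads overlapped. Runs between later bins were above those from earlier to later bins on 14 of 16 autosomes, and runs between earlier bins on 12 of 19. The mean GC contents at these ranks were 41.9%, 42.6% and 41.9%. Among runs of at least 10 bins, the schedule value spanned a median of 0.588 within runs from earlier to later bins, 0.298 between earlier bins and 0.445 between later bins.

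How far a cell had come through S phase (its progress) was the percentage of used bins replicated in its binarized profile, in which each bin is either replicated or not, and a diploid cell's homologs were averaged. Mid S phase cells had 40% to 60% replicated, which were 25 haploid and 45 diploid cells. In the 25 haploid cells, the share of members replicated ranged from 32.7% through a median of 59.6% to 72.3%, with a mean of 58.1% ± 10.1 (SD over cells). In the 45 diploid cells it ranged from 32.5% through 63.7% to 75.9%, with a mean of 59.6% ± 12.2. The lines overlapped over nearly their whole range. Bins earlier than the members were 94.8% ± 3.18 and 94.1% ± 5.27 replicated in the same haploid and diploid cells, and bins later than them 9.44% ± 4.68 and 8.55% ± 5.12.

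Before mid S phase, 20.7% ± 6.62 of members were replicated in 11 haploid cells and 23% ± 8.11 in 4 diploid cells. After it, 90.1% ± 7.43 were replicated in 39 haploid cells and 79.6% ± 5.95 in 14 diploid cells. These later groups did not hold cells of like progress, with a median of 75.2% of all bins replicated in the haploid and 62% in the diploid cells. On a logistic curve over all 138 cells, 50% of members were replicated at a progress of 48.9%, and the rise from 25% to 75% took 24.3 percentage points of progress. A 50% point near the middle follows from the rule, since ranks and progress come from the same bins and cells. Separate curves gave 49.1% in haploid and 49% in diploid cells. Earlier bins reached 50% at a progress of 25.3% and later bins at 75.9%.

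**Figure D1:**
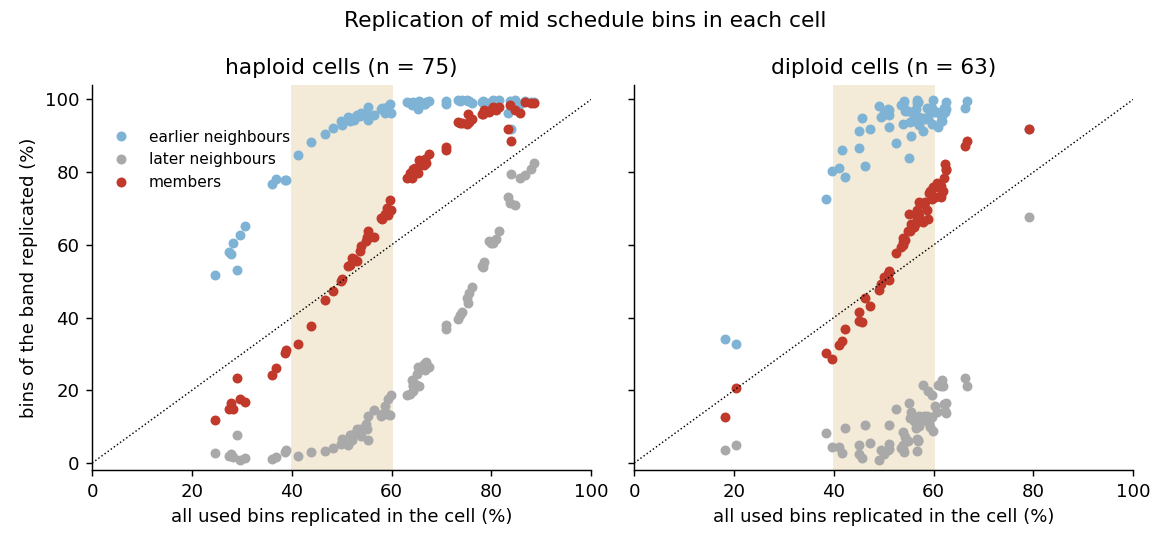
Percentage of the bins of a band replicated (vertical axis) against the percentage of all used bins replicated in the same cell (horizontal axis) for 75 haploid and 63 diploid cells, with members in red, bins ranked 10% to under 35% in blue and 65% to under 90% in grey, and mid S phase shaded. The members rise steepest inside the shaded range, where they go from 32.7% to 72.3% in haploid cells and from 32.5% to 75.9% in diploid cells.

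The order of ranks within the members also stood in most single cells. Members ranked 35% to under 45% were 79.3% ± 8.67 replicated in haploid and 81.7% ± 11 in diploid mid S phase cells. Those ranked 45% to under 55% were 58.9% ± 11.5 and 61.3% ± 14.6 replicated, and those ranked 55% to under 65% 36% ± 10.7 and 35.7% ± 13. The 3 groups stood in this order in 73 of 75 haploid and 62 of 63 diploid cells, including all 25 and 45 mid S phase cells. Their 50% points lay at a progress of 38.3%, 49% and 58.9%. Since each cell is part of the schedule that ranked the bins, this order was not independent of the cells.

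Seen bin by bin, 67.3% of members were replicated in between 25% and 75% of the 70 mid S phase cells, against 0.621% of the earlier and 3.51% of the later bins. This contrast follows largely from the rule, since the scores of these cells took part in ranking the bins. A member was replicated in a median of 60.7% of these cells, with 24.3% at the 5th and 90% at the 95th percentile of members. The scores, which are centred within each cell and have no fixed unit, also spread widely but leaned below 0. Of all member scores in mid S phase cells, 33.9% lay within 0.25 of 0, 22.5% lay below -0.5 and 13.6% lay above 0.5. The SD of a bin's score over mid S phase cells had a median of 0.440 in members, 0.394 in earlier and 0.321 in later bins.

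**Figure D2:**
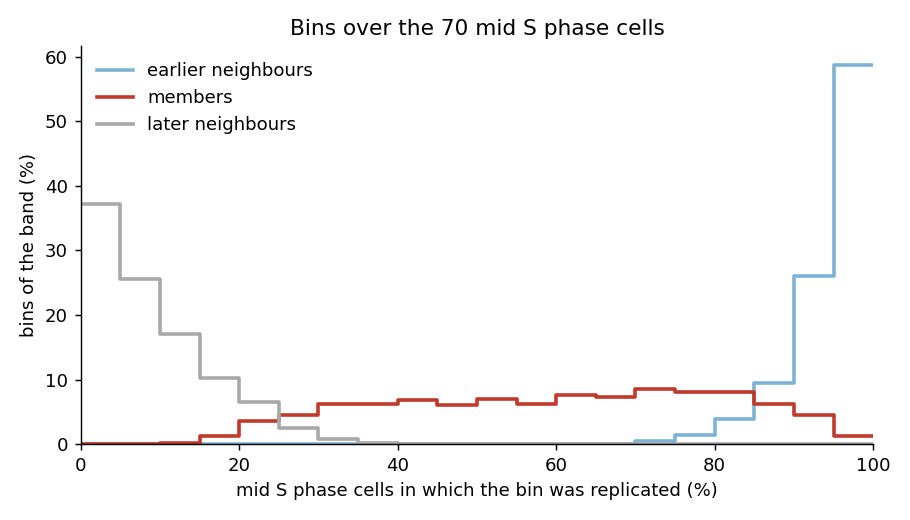
Percentage of bins of each band (vertical axis) by the percentage of the 70 mid S phase cells in which the bin was replicated (horizontal axis, in steps of 5 percentage points). Members spread over nearly the whole axis with a median of 60.7% of cells, while earlier bins crowd at the right end and later bins at the left. The contrast between the bands follows largely from the rule.

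Most long runs were split in a given cell. In the 521 runs of at least 10 bins (500 kb), haploid mid S phase cells had 27.8% ± 10.4 of runs wholly replicated, 14.8% ± 6.91 wholly unreplicated and 57.5% ± 6.05 split. The values over the homologs of diploid cells were 28.7% ± 11.4, 14.6% ± 8.56 and 56.7% ± 7.17. Runs between earlier bins were wholly replicated most often, at 49.4% ± 15.8 in haploid and 52.7% ± 17.6 in diploid cells, and runs between later bins were wholly unreplicated most often, at 29.3% ± 12.1 and 28.8% ± 14.2. Runs from earlier to later bins were split most often, at 65.4% ± 7.41 and 65.5% ± 8.93. The run types were defined by the same schedule, so these contrasts between them follow in part from the rule. The states come from smoothed profiles of 750 kb windows segmented into stretches, which lengthens stretches of a single state.

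The longest runs show how this looked at single places. The longest run from earlier to later bins, chr11:28650001-31900000 (65 bins, ranks 35.7% to 64.2%), holds 24 protein-coding genes, the first of which are Efemp1, Pnpt1, Ppp4r3b and Cfap36. Its mean score ran from -0.02 through a median of 0.36 to 0.59 in haploid mid S phase cells and from -0.64 through -0.04 to 0.58 in diploid ones. It was 90.1% replicated in the haploid and 72.7% in the diploid cells, and the score ranges overlapped. The next longest of this type were chr18:68300001-70900000 (52 bins, with the melanocortin receptor genes Mc5r and Mc2r), 47% and 56.9% replicated, and chr13:29950001-32300000 (47 bins, with the S phase transcription factor gene E2f3), 37.4% and 55.9% replicated.

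Between earlier bins, the longest runs were chr1:161550001-163800000 (45 bins, from the death ligand gene Fasl), chr5:106050001-108300000 (45 bins) and chr7:119150001-121000000 (37 bins, with the uromodulin gene Umod). They were 37.1%, 69.2% and 74.1% replicated in haploid and 51.7%, 69.9% and 65.5% in diploid mid S phase cells. The run on chromosome 5 holds Cdc7, the kinase that fires origins. Between later bins, the longest were chr3:18050001-20350000 (46 bins, with Bhlhe22 and Cyp7b1), chr10:51650001-53850000 (44 bins, with Rfx6 and Ros1) and chr19:15500001-17550000 (41 bins, with Psat1 and the G protein gene Gnaq). They were 62.6%, 53.3% and 62.8% replicated in haploid and 59.98%, 48.4% and 74.8% in diploid cells. These 3 islands were wholly replicated in 1, 1 and 0 of the 25 haploid cells and wholly unreplicated in 3, 2 and 2 of them.

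For each bin and cell, the time past schedule was the cell's progress minus the rank of the bin, in h, with the cell left out of the schedule. Members were replicated in 14.7% of cases 2.05 h before their scheduled time, 26.2% at 1.05 h before, 53.9% at 0.05 h after, 77.6% at 1.05 h after and 91.4% at 2.05 h after. On a sigmoid fitted to these shares, the time from 25% to 75% replicated (T_width) was 2.29 h, with an SD of 0.0991 h over the same fit on each of the 19 autosomes. It was 2.24 h over haploid and 2.49 h over diploid cells. The diploid value rested on the 3 cells far from the rest, since without them it was 2.06 h. Members ranked 35% to under 45%, 45% to under 55% and 55% to under 65% had 2.55 h, 2.40 h and 2.14 h, and the earlier and later bins had 2.67 h and 1.78 h. These T_widths of the bands cover unlike ranges of time before and after schedule, from 1.65 h before to 7.85 h after in the earlier bins and from 7.15 h before to 2.35 h after in the later bins. They are given side by side without a comparison.

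**Figure D3:**
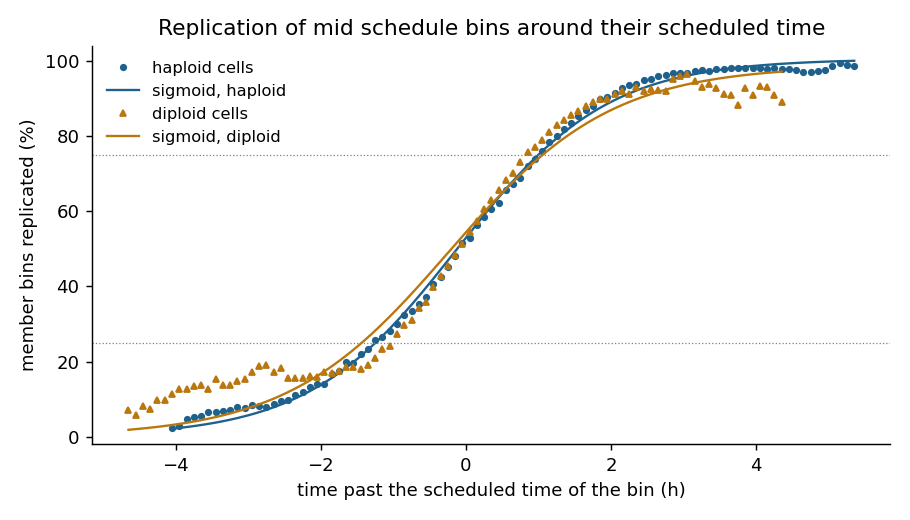
Percentage of member bins replicated (vertical axis) by the time past the scheduled time of the bin in h (horizontal axis, intervals of 0.1 h with at least 100 values), with points for 75 haploid and 63 diploid cells and lines for the fitted sigmoids. Both lines pass 50% near 0 h, and most diploid points earlier than 2.05 h before schedule lie above their sigmoid, a range in which the 2 diploid cells with 18.2% and 20.4% of bins replicated take part.

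Cells at the same position in S phase did not have the same members replicated. Over 404 pairs of cells within 1 percentage point of progress, 32.4% of members differed in state. In the 270 pairs of mid S phase cells 36.6% differed, and the mean over the pairs of a cell was 37.1% ± 2.68 (SD over 69 cells). By rank, 24.3% of the members ranked 35% to under 45% differed in these mid S phase pairs, 41.4% of those ranked 45% to under 55% and 43.96% of those ranked 55% to under 65%. Earlier bins differed at 8.08% and later bins at 16.6%. These rates depend on the share of bins replicated, which follows from the ranks. If paired cells kept their shares but were unrelated bin by bin, 45.1% of members, 8.33% of earlier and 17.8% of later bins would differ. For the 3 groups of rank the corresponding values were 25.3%, 43.4% and 46.2%. Taken by line, over pairs at any position in S phase, 24.2% of members differed in 94 pairs of haploid cells, 33.3% in 159 pairs of diploid cells and 36.6% in 151 pairs of a haploid and a diploid cell. If the paired cells were unrelated in the way given above, 29.8%, 42.1% and 42.7% would differ, in the same order. These sets of pairs did not cover like positions, as more of the haploid cells lay after mid S phase. Pairs share cells, so they are not independent.

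The states of the single homologs were not used to choose members. The diploid scores were used and combine both homologs, so asynchrony is not wholly independent of the rule. A bin was called asynchronous where the 129 and cas states differed, and the authors' calling gave both homologs the same state unless the parsed reads of a segment were clear, which lowers these counts. On average 1.0% ± 1.77 of members were asynchronous over the 63 diploid cells, and 42 cells had any. The median cell had 0.436% and the cell with the most 9.66%. Other bins had 0.814% ± 1.52 in the same cells. The difference of 0.186 percentage points was smaller than its SD over cells of 0.434, and members were higher in 33 cells, lower in 12 and equal in 18. Members held 8525 of all 24715 asynchronous cases (34.5%), and the 5 cells with the most held 48.5% of the members' cases. Asynchrony in at least 3 cells was seen at 442 members, or 3.27%, at 2.46% of all used bins and at 2.12% of other bins. Asynchrony in at least 4 cells was seen at 0.672% of members and 0.329% of other bins. In at least 5 cells it was seen at 0.0517% of members and 0.0507% of other bins.

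The 129 homolog led more often than the cas homolog. Only the 129 copy was replicated in 0.602% ± 0.972 of members and only the cas copy in 0.398% ± 0.833. The 129 copy led at more members in 36 cells and the cas copy in 5, but the mean difference of 0.203 percentage points was smaller than its SD of 0.390. In the other bins the 129 copy also led in more cells, 33 against 12. The study's limit for calling an early 129 homolog was slightly looser than that for cas, and the part of that limit in this count was not tested.

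The stretches of at least 5 members with the most asynchronous cells had 4 or 5 such cells of 63 at every bin. In 3 of the 8 such stretches only the 129 copy was replicated in all of them. These were chr9:25350001-25650000 with Eepd1, which encodes a nuclease of fork repair, chr10:56350001-56650000 with the connexin gene Gja1, and chr18:62950001-63600000 with Napg and the mechanosensory channel gene Piezo2. In chr13:70000001-70400000, where no protein-coding gene starts, only the cas copy was replicated in all 4 cells. The others were mixed. They were chr1:53700001-53950000 (Dnah7a and Stk17b), chr2:179000001-179400000 (no gene start), chr4:8550001-9250000 with the chromatin remodeler gene Chd7, and chr8:114100001-114450000 with Nudt7, Vat1l, Clec3a and Wwox, the last a large gene at a common fragile site.

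The lines were compared at the members by the haploid minus the diploid mean score of each bin. The difference averaged 0.0517 with an SD over bins of 0.208 and ran from -0.826 to 0.732. In mid S phase cells alone, which are closer in progress, it averaged 0.0259 with an SD of 0.258. Haploid scores were higher by at least 0.5 at 100 members (0.739% of members), where 0.59% of all used bins were, and diploid scores at 118 (0.872%), where 0.676% of all were. In mid S phase cells these counts were 245 (1.81% of members) and 420 (3.10%), against 0.82% and 1.31% of all used bins.

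When each line was ranked alone, 73.6% of members (9956 bins) were mid in both lines. None was early in 1 line and late in the other. Early in the haploid and mid in the diploid ranks were 1222 members, and mid in the haploid and early in the diploid ranks 973. Mid in the haploid and late in the diploid ranks were 649, and late and mid 727. The remaining 5 members were early and 1 was late in both. A member's rank differed between the lines by a median of 6.54 points, with a 95th percentile of 20.1 and a maximum of 45.1. The median was 8.97 points in earlier and 5.82 in later bins. Because the mean of both lines chose the members, the counts by rank in each line follow in part from the rule.

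The runs of at least 10 bins with the largest line differences were chosen by that difference and are described without a test. Their scores were not centred by chromosome, so a line difference shared by a whole chromosome enters these values. With chromosomes centred on 0 in each cell, 122 members lay past 0.5 between the lines, against 218 without centring. How much of the difference at each run is shared by its chromosome was not tested. Over all cells, haploid scores were highest over diploid ones at chr11:25700001-26450000 (15 bins), which holds Fancl, the ubiquitin ligase of Fanconi anemia repair. In haploid mid S phase cells its score ran from -0.58 through a median of 0.10 to 0.70, and in diploid ones from -1.28 through -0.70 to 0.01. The ranges overlapped, yet 10 of 25 haploid cells had the whole run replicated, and 33 of 45 diploid cells had it wholly unreplicated on both homologs. The next were chr15:65550001-67400000 (37 bins, with Efr3a, Oc90, Hhla1 and the potassium channel gene Kcnq3), 61.7% replicated in haploid and 28% in diploid mid S phase cells, and chr9:94750001-95450000 (14 bins, with Chst2), 70% and 38.3% replicated.

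In the 3 runs where diploid scores over all cells most exceeded haploid ones, the haploid minus diploid differences were -0.52, -0.52 and -0.48. In mid S phase cells the differences were -0.55, -0.57 and -0.68 in the same order. The first was chr3:146100001-146850000 (15 bins, with Wdr63, the lysosomal channel genes Mcoln3 and Mcoln2, and Lpar3). Its score ran from -0.93 through -0.37 to 1.01 in haploid and from -0.49 through 0.33 to 0.97 in diploid mid S phase cells, and it was 40% and 83.1% replicated. At chr1:189250001-190600000 (27 bins, with Kcnk2, the kinetochore gene Cenpf, Ptpn14 and Smyd2) the replicated shares were 39.9% and 87.2%. At chr18:3100001-6000000 (58 bins, with Vmn1r238, Crem, Cul2 and Bambi) they were 30.9% and 89.1%, and 22 of 45 diploid but 1 of 25 haploid cells had the whole run replicated. Haploid ranks of these 3 runs had medians of 57.9%, 57.1% and 58.1%, and diploid ranks 24.5%, 25.8% and 31.8%.

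Base composition and genes were not used to choose members, and on these the members stood between their neighbours. Their GC content was 41.9% ± 2.55 (SD over bins), against 45% ± 3.27 in earlier and 38.9% ± 1.96 in later bins, and the members' mean lay between the others' means on 19 of 19 autosomes. CpG density was 8.34 per kb in members, 11.3 in earlier and 5.93 in later bins. Repeats, taken as lower-case bases of the reference, covered 31.8% of members, 28.6% of earlier and 36.8% of later bins. Within the members GC content fell from 43% through 41.9% to 40.9% over the 3 groups of rank. Single bins overlapped widely, since 13.6% of members lay above the median of the earlier bins and 7.75% below that of the later bins. Over member bins, rank and GC content had a Pearson r of -0.356 (n = 13533), and over all bins -0.788. Bins are neighbours on chromosomes and were smoothed over 750 kb, so these are descriptions.

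Gene density also fell along the schedule. Members had 6.96 protein-coding gene starts per Mb, against 15.2 in earlier and 3.23 in later bins, with the members between the others on 19 of 19 autosomes. Over the 3 groups of rank it fell from 9.44 through 6.54 to 4.89 per Mb. A gene start was present in 25.5% of members, 46.6% of earlier and 11.8% of later bins. The median gene that started in members was 22.6 kb long, against 18.5 kb in earlier and 11.5 kb in later bins. Genes of at least 500 kb made up 1.76% of the members' genes, 0.280% of the earlier and 3.9% of the later bins' genes. Promoters in members held a median of 8 CpG in the 250 bases before the start, against 13 in earlier and 2 in later bins, and 8.63% had none, against 2.10% and 21.9%.

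**Figure D4:**
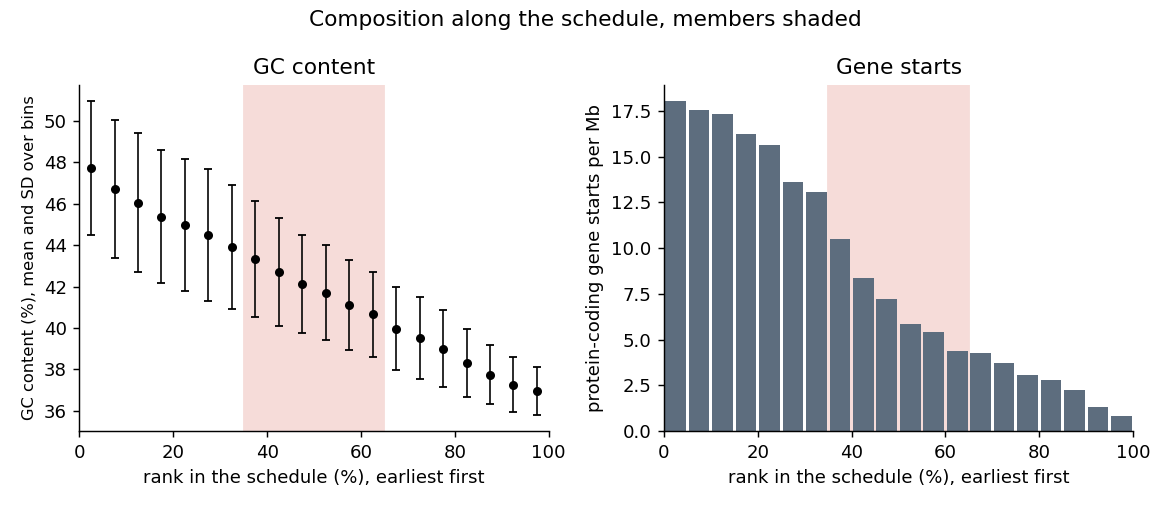
Mean GC content with its SD over bins (left) and protein-coding gene starts per Mb (right) in steps of 5% of rank in the schedule, earliest first, with the members' ranks shaded. GC content falls evenly across the shaded ranks, and gene starts fall from 9.44 to 4.89 per Mb between the first and the last 10% of ranks in the members.

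In all, 4708 protein-coding genes started in members, or 24.3% of the 19345 in used bins, while 65% started in earlier and 10.7% in later bins. The lists below were not tested against these shares. Genes of the pluripotency network were mostly earlier. Of 27 in used bins, 23 were earlier than the members and 4 were members, namely Zfp42 (rank 46.6%), Dppa2 (36.2%), Dppa4 (39.8%) and Fbxo15 (35.9%), all known as genes active in undifferentiated cells. The bin of Dppa2 was replicated in 96% of the haploid and 97.8% of the diploid mid S phase cells, and that of Zfp42 in 92% and 84.4%. Of the DNA replication and S phase factors, 39 of 49 were earlier, 10 were members and none was later. Among these, the origin recognition genes Orc3, Orc5 and Orc4 ranked 37.7%, 51% and 58.4%, the kinase gene Cdc7 52% and its activator Dbf4 50.7%. The others were the helicase genes Mcm4 and Mcm5, Lig1, Rpa3 and the checkpoint kinase gene Chek1. Of 18 cyclin and kinase genes, 4 were members, Ccna2, Ccna1, Cdk6 and the inhibitor gene Cdkn2d. Members thus made up 14.8% of the pluripotency, 20.4% of the replication and 22.2% of the cyclin and kinase list, the last of them within 1 gene of the share of all genes.

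Regulators of the germ layers lay close to the shares of all genes, with 24 of 38 earlier (63.2%), 8 members (21.1%) and 6 later (15.8%). The members were the endoderm factors Sox17 (47.5%) and Gata6 (46.3%), the mesoderm factor T (48.8%), the blood factors Tal1 (35%) and Runx1 (40.1%), Gata3 (41.3%), the heart factor Hand2 (40.5%) and the lung and thyroid factor Nkx2-1 (62.9%). In mid S phase, the bin of Sox17 was replicated in 72% of haploid cells and in 57.8% of the homologs of diploid cells. For T these values were 36% and 57.8%, and for Nkx2-1 32% and 15.6%. Signalling genes of development had 34 of 48 earlier (70.8%), 10 members (20.8%) and 4 later (8.33%). The members included the ligands Bmp4 (49.3%), Bmp5 (53.3%), Fgf2 (35.1%), Wnt2 (57.6%) and Jag1 (60.9%), and the receptors Notch2 (41.4%), Fzd2 (36%), Acvr1 (47.7%), Acvr2a (64.96%) and Bmpr1b (61.8%). Of 39 imprinted genes 6 were members (15.4%), in only 4 bins, with Sgce and Peg10 sharing a bin and Peg3 and Usp29 sharing another.

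Lists made up mostly of nerve cell genes divided by kind. Of 40 large genes, most of them of neuronal adhesion and synapses, 31 were later, 8 were members and 1 was earlier. The list also holds large genes that are neither, among them Macrod2, Wwox and Fhit. The members were Macrod2, Ptprt, Csmd2, Dpp6, Dlg2, Wwox, Cdh13 and Fhit, of which Wwox and Fhit span common fragile sites. Because each was placed by its start, the rest of such a gene can lie in other bands. Ion channel and receptor genes were near evenly spread, with 13 earlier, 12 members and 14 later of 39. The members among them included the sodium channel genes Scn2a (56%) and Scn3a (54.8%), the glutamate receptor genes Grin2b (39.3%) and Grm8 (57.6%), and Chrna7 (62.3%), the nicotinic receptor gene.

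Clustered gene families differed in their share of members, and genes of a cluster share bins and are not independent. Several families had more than the 24.3% of all genes in members. Of 1057 olfactory receptor genes 379 were members (35.9%, in 196 bins), 133 were earlier and 545 later. The vomeronasal receptor families had 74 of 132 (Vmn1r, 56.1%) and 32 of 69 (Vmn2r, 46.4%) in members and only 1 gene each earlier. Beta-defensin genes had 22 of 41, C-type lectin genes 14 of 29, keratin and keratin-associated genes 43 of 113 and serpin genes 18 of 46. Zinc finger genes of the Zfp series had 102 of 335 (30.4%). Other clustered families had few or no members. These were the Ugt genes of glucuronidation with 2 of 19 (10.5%), the 12 Sprr genes of the skin barrier, all later, and the histone 2, Pcdhg, HoxA, HoxB and HoxC genes, all earlier. Among families used by every cell, 7 of 52 Rpl ribosomal protein genes (13.5%) and 6 of 48 proteasome genes (12.5%) were members. Genes with symbols in Rps, which are ribosomal protein and S6 kinase genes, had 9 of 39 (23.1%) and the Ndufa genes of respiratory complex I had 5 of 21 (23.8%), both near the share of all genes.

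**Figure D5:**
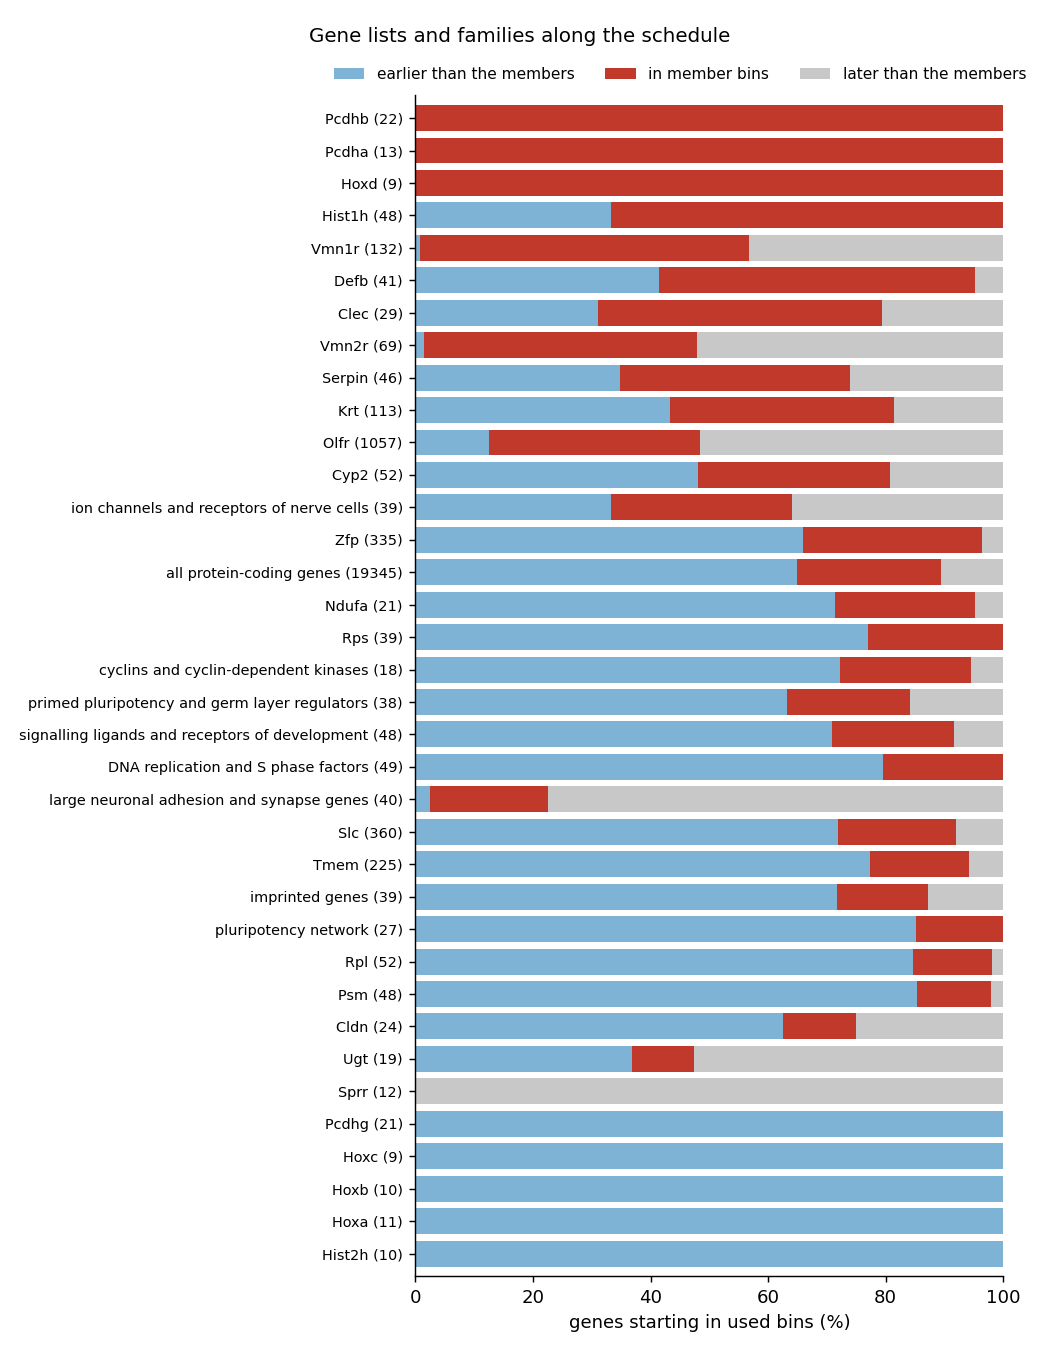
Percentage of the protein-coding genes of each list or family (all genes, for the imprinted list) that start in bins earlier than the members (blue), in members (red) or later (grey), for lists with at least 9 genes in used bins, whose number stands in brackets. The Pcdha, Pcdhb and Hoxd clusters lie wholly in members, against 24.3% of all protein-coding genes.

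Related clusters took different places in the schedule. The 4 Hox clusters hold the homeobox genes that set position along the body axis, and only HoxD lay in members. All 9 of its genes (chr2:74668310-74765142, 3 bins) ranked 46.6% to 48.3%, while HoxA, HoxB and HoxC ranked 11.1% to 14.2%, 12% to 18.8% and 14.8% to 21.6%. The HoxD bins were 56% ± 50.7 replicated in haploid and 80.7% ± 39.2 in diploid mid S phase cells, with scores from -1.17 through a median of -0.11 to 0.78 and from -0.69 through 0.13 to 0.88. With SDs this large, the cluster was wholly replicated or wholly unreplicated in most cells. Its 3 bins are fewer than the 5 bins of the shortest segment in the authors' calling. A single state across the cluster is therefore in large part set by the processing. HoxA was 96% and 99.3% replicated in the same cells. The GC content of the HoxD bins was 47.4%, above the 41.9% of the members and near the 48.7% of HoxA. The promoter of Hoxd13 printed above, with 31 CpG, belongs to this cluster.

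The clustered protocadherins, which give neurons their surface identity, lie side by side on chromosome 18. The alpha (chr18:36930184-37187661) and beta (chr18:37264938-37524479) genes were all members, with ranks from 37.9% to 49.6% and from 36.8% to 50.1%. The 21 gamma genes (chr18:37661793-37841873) were all earlier, at 6.93% to 18.3%. In haploid mid S phase cells the alpha bins were 86.4% ± 32.5 and the beta bins 86.7% ± 31.5 replicated, and in diploid ones 67.1% ± 41.2 and 59.8% ± 43.7. The gamma bins were 100% and 97.2% ± 13.3 replicated. Histone cluster 1 (chr13:21715763-23934851), which supplies histones in S phase, had 32 of 48 genes in members and 16 earlier, and its bins were 82% ± 19.4 replicated in haploid and 69.3% ± 37.8 in diploid mid S phase cells. The 10 genes of histone cluster 2 were all earlier, at ranks up to 15.1%. The 4 Cd200 receptor genes of myeloid cells (chr16:44765736-44981380) were members and 52% ± 47.3 and 74.4% ± 42.1 replicated.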

How the data were processed

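Single nuclei of H129-2 and F121-9 were sorted by DNA content, amplified and sequenced. Per the methods and the submitters' processing notes, the authors mapped reads to mm10 with Bowtie2, processed them with SAMtools and bedtools, counted them in 50 kb windows, corrected them by control cells, centred each cell, gave all cells the same interquartile range and applied a running median of 15 windows. What they deposited is a smoothed score with no fixed unit, relative within a cell. The other deposited table holds the authors' binarized states, 0 or 1, with the homologs of diploid cells apart. Smoothing links neighbouring bins, so single bins are not independent measurements.

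Columns were matched to labelled cells by plate well. The labels name 188 cells, 86 of them haploid and 96 diploid in S phase and 6 haploid in G1. S-phase cells with no column of their own (11 haploid, 33 diploid) and those in G1 were left out. The tables also hold 24 columns of 8 diploid cells that fit no label. These stayed unused, so the rule ran on 138 columns. Of 52685 bins, 49264 were autosomal and 45112 were scored in at least 50% of the haploid and at least 50% of the diploid cells. Members had a score in 97.2% to 99.7% of bins per cell.

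Gene starts came from GENCODE on the same build, base composition from the GRCm38 genome and promoters from RefSeq. The sigmoid and its starting values (100, 0.7 and 0) for T_width came from the methods. Its inputs differ from theirs, since scheduled time was here the rank by single-cell scores instead of population Repli-seq, and cases were pooled over bins and cells. The members, gene lists and rules were chosen with earlier results of these data known. The text names the 3 longest runs of each type, the 3 runs with the largest line difference each way, the most asynchronous stretches, at most 4 genes a run, and listed genes in members. No test was made because each line is 1 sample. Scripts were tested on simulated data. Python 3.11.15, NumPy 2.4.6, pandas 2.3.3 and SciPy 1.17.1 were used.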

Additional observations from a re-analysis of the deposited data

How the results depend on the processing

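Of 89 alternative values for 16 results, 69 kept within the spread of the value (SD over cells, or over the 19 autosomes) or, for counts, within 1.5 times of it, and 20 moved further. None changed sign, but only the differences in asynchrony, GC content and gene starts could, since the other results cannot be negative. The number of member bins follows from the rule in every setting, so its place among the 69 says nothing of stability. Some spreads over cells were wide, at 10.1 and 12.2 points for members replicated and 11.2 for members that differed. That of the asynchrony difference, 0.434, exceeded the difference itself, 0.186. Staying within such spreads says little of stability. The alternatives ranked bins by 1 line alone or by states, narrowed the band to ranks 40% to under 60%, or changed the calls, the cells or the scale. With a score above 0 as the call, 47.9% of members were replicated in haploid and 42.2% in diploid mid S phase cells. T_width was 2.40 h with the schedule of diploid cells, 1.96 h with progress from bins that are no members, 2.49 h in diploid cells only, 2.46 h without the haploid cells of plate rows A and G, and 2.16 h without the 3 diploid cells far from the rest. The SD over members of the haploid minus diploid score was 0.258 in mid S phase cells, 0.179 with chromosomes centred on 0 in each cell and 0.158 for states, and the members past 0.5 numbered 665, 122 and 52, and 128 in the narrower band. Members early in 1 line and late in the other numbered 6 by states, 5 in mid S phase cells and 41 in the narrower band, which also had 62.1% mid in both lines. The share of members in runs from earlier to later bins was 45.7% in the narrower band and 51.5% with runs joined over gaps. The cause of these changes was not tested, apart from the narrower band holding fewer bins. With 1 cell out of every one of the 3 alike diploid pairs dropped, 59.1% of members were replicated in diploid mid S phase cells, T_width was 2.29 h, 32.2% of members differed between cells of matched progress, the asynchrony difference was 0.149 percentage points and 226 members lay past 0.5 between the lines. Leaving out these cells, joining runs over gaps and leaving out the 3 far diploid cells were chosen after seeing the data.

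No paired analysis was possible because plate wells only name cells and do not link the lines. The depth of each cell is unknown, diploid cells before and after mid S phase were few (4 and 14), and no replicate culture is labelled.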
